A study of Mus musculus with 6 samples.

Results

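A set of 24850 regions was followed in which 5-methylcytosine (5mC) was listed on the third day of induced reprogramming and at no other stage, and in which the induced pluripotent stem (iPS) cells carried 5-hydroxymethylcytosine (5hmC). The regions were chosen by the measured peak lists themselves: a 5mC peak of day 3 was taken if it shared no base with a fibroblast 5mC peak, no base with an iPS 5mC peak, and at least 1 bp with an iPS 5hmC peak. They make up 15.0% of the 165869 day-3 5mC peaks and are called members below. All coordinates are on the mouse build mm9, counted from 1.

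5mC is the methyl mark that DNA methyltransferases place on cytosine, mostly at CpG. The TET enzymes, of which Tet1 is one, oxidise it to 5hmC, which can be lost through replication or further oxidation. Mouse pluripotent cells are known for high TET activity and abundant 5hmC, and fibroblasts for much less of it. A region where 5mC is found for a time and 5hmC afterwards is therefore of interest in a system driven by Tet1, although separate immunoprecipitations do not show that one mark became the other on the same molecule.

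DNA was immunoprecipitated with an antibody against 5hmC or 5mC and sequenced at 3 stages. All cells had the OG2-GFP/Rosa26-M2rtTA background and came from a secondary system for Tet1, Sox2, Klf4 and c-Myc (TSKM), in which fibroblasts from mice made with iPS cells can be induced again with doxycycline. The stages were fibroblasts at passage 4, fibroblasts of passage 4 given doxycycline in ES medium for 3 days, and 1 iPS cell line at passage 10 to 15 grown on feeder cells, which were removed by plating before collection. The labels describe no sorting of the day-3 culture, and peak lists hold no marker with which the cell types could be checked. Each stage and mark had 1 library, so there is no replicate error, no test between stages was possible, and intervals below are 95% Wilson intervals that cover counting error only. The 6 lists held 42301 to 174079 peaks, the read depth behind them is unknown, and a peak missing from a list means only that nothing there passed the authors' threshold.

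The choice ran in 3 steps. Of the day-3 5mC peaks, 72991 lay on no fibroblast 5mC peak. Of those, 63472 also lay on no iPS 5mC peak and are called day-3-only. Of the day-3-only peaks, 24850 overlapped an iPS 5hmC peak and 38622 did not. That share, 39.2%, was set by the rule and is given as a description, beside 57.2% of all day-3 5mC peaks that overlapped an iPS 5hmC peak. The 2 lists that had to be empty were the shorter 5mC lists, with 104011 peaks in fibroblasts and 61171 in iPS cells.

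The edge of the rule was thinly filled. The least overlap was 1 bp, reached on chromosome 6 at 101166114 to 101166582 and on chromosome 9 at 43708303 to 43709025. On the other side, the peaks on chromosome 2 at 31987493 to 31988808 and at 129467172 to 129467737 abutted an iPS 5hmC peak without a shared base and were left out. Among members, 530 (2.13%) shared at most 100 bp with iPS 5hmC, and 839 (2.17%) of the other day-3-only peaks lay within 100 bp of it. A further 230 day-3 peaks on iPS 5hmC were left out for 100 bp or less of fibroblast 5mC, and 123 for 100 bp or less of iPS 5mC.

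Members were narrow and low-scoring 5mC peaks. Their median width was 818 bp (quartiles 703 and 943), against 754 bp for the other day-3-only peaks and 1011 bp for day-3 peaks carried over from fibroblasts. Their median score was 78.3 (quartiles 61.0 and 106.8), against 69.7 for the other day-3-only peaks and 166.3 for the carried peaks. The score is the authors' value per peak, taken here as the MACS scale of 10 times −log10 p, and none in this list is under 50.01. A score of at least 100 was reached by 29.5% of members (28.9 to 30.0), by 19.2% of the other day-3-only peaks and by 53.8% of the whole day-3 5mC list. In width and score members thus lay closer to the other day-3-only peaks than to those that fibroblasts already had. Peaks gained by day 3 and kept as 5mC in iPS cells were closer still to members, with medians of 843 bp and 86.1.

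Members made up less of the higher-scoring 5mC peaks, where peaks carried from fibroblasts made up more. When the day-3 5mC list was ranked by score and divided into 5 equal groups, members made up 24.1% of the lowest group, 22.4%, 17.7% and 9.25% of the next, and 1.48% of the highest. Peaks already listed in fibroblasts were 19.9% of the lowest group and 96.4% of the highest. Among day-3-only peaks alone members made up more of the 2 highest groups than of the lowest, at 33.0%, 37.8%, 45.6%, 53.2% and 52.0% from the lowest to the highest group, a description since the rule set membership. Only 490 members stood in the highest group, above a score of 227.7. Whether weak 5mC in fibroblasts or iPS cells went unlisted at the other regions was not tested and cannot be read from peak lists.

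The rule did not use the 5hmC lists of fibroblasts and of day 3. It did use iPS 5hmC, and the 5hmC lists went together. Day-3-only peaks with both earlier 5hmC peaks had iPS 5hmC in 79.8% of cases, those with neither in 32.2%. The differences below are therefore not independent of the rule and are given as a description. Members carried earlier 5hmC more often than the other day-3-only peaks, which by the rule have no iPS 5hmC. A day-3 5hmC peak overlapped 8709 members, or 35.0% (34.5 to 35.6), against 7171 of the other day-3-only peaks, or 18.6% (18.18 to 18.96), and 28.8% of the whole day-3 5mC list. A fibroblast 5hmC peak overlapped 3825 members, or 15.4% (14.95 to 15.85), against 1595 of the other day-3-only peaks, or 4.13% (3.94 to 4.33), and 10.8% of the whole list. The difference between both kinds of day-3-only peak was 16.5 percentage points for day-3 5hmC (15.8 to 17.2) and 11.3 points for fibroblast 5hmC (10.8 to 11.8). With all lists shortened to the same number of best-scoring peaks the differences were 9.02 and 6.04 points, and among peaks scoring 100 or more the fibroblast 5hmC difference was 6.89 points.

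**Figure D1:**
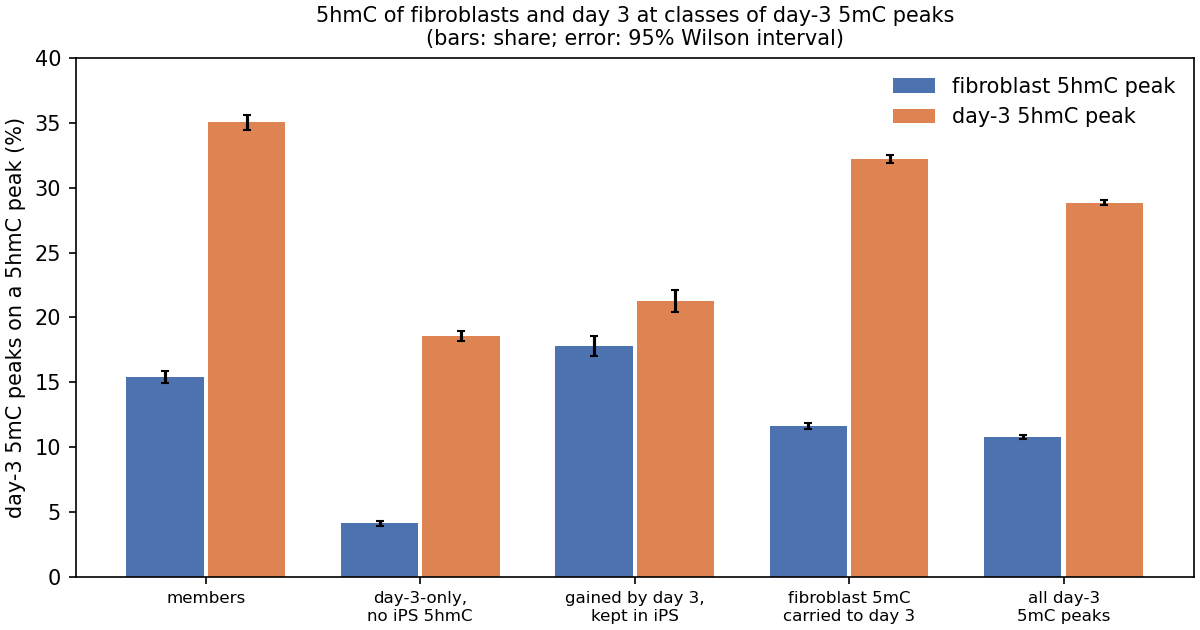
Share of day-3 5mC peaks (vertical axis, %) on a fibroblast 5hmC peak and on a day-3 5hmC peak, for members and 4 sets of day-3 5mC peaks; bars are shares and error bars 95% Wilson intervals. Members reach 15.4% and 35.0%, the other day-3-only peaks 4.13% and 18.6%.

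Set against peaks with another history, how members compared depended on the list. For day-3 5hmC their 35.0% was above the 32.2% (31.9 to 32.5) of carried fibroblast 5mC peaks and the 21.3% (20.4 to 22.1) of peaks gained by day 3 and kept as 5mC in iPS cells. For fibroblast 5hmC their 15.4% was above the 11.6% of carried peaks but below the 17.8% (17.01 to 18.55) of gained and kept peaks. All of these intervals were separate, with 1 library behind each list. The sets are not matched for iPS 5hmC, which by the rule all members had. It was found at 69.9% of carried peaks and 53.9% of gained and kept peaks. Among iPS 5hmC peaks, day-3 5hmC was at 36.7% of those on a member. It was at 37.4% of those on fibroblast 5mC and no member.

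Followed over the stages, most members had no 5hmC peak before the iPS stage, although fewer than in the whole day-3 5mC list. Neither earlier list held a 5hmC peak at 14470 members, or 58.2% (57.6 to 58.8). The day-3 list alone had one at 6555 (26.4%), both earlier lists at 2154 (8.67%) and the fibroblast list alone at 1671 (6.72%). Among the other day-3-only peaks 78.7% had neither, 17.2% had day-3 5hmC alone, 1.41% had both and 2.72% had fibroblast 5hmC alone. Over all day-3 5mC peaks these shares were 66.2%, 23.05%, 5.79% and 5.00% in the same order. Both marks were thus listed at day 3 at 8709 regions.

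Members with 5hmC in fibroblasts were also more often listed with 5hmC at day 3. Of members with a fibroblast 5hmC peak, 56.3% (54.7 to 57.9) had one at day 3, against 31.2% (30.5 to 31.8) of members without. In the other day-3-only peaks the shares were 34.1% and 17.9%. Read in the other direction, which the rule fixes and which is a description, day-3-only peaks with both earlier 5hmC peaks had iPS 5hmC in 79.8% of cases, those with fibroblast 5hmC alone in 61.4%, those with day-3 5hmC alone in 49.7% and those with neither in 32.2%.

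The regions differed little in 5mC peak shape across these histories, and more in the iPS 5hmC score. Median 5mC width was 821 bp with both earlier 5hmC peaks, 850 bp with day-3 5hmC alone, 768 bp with fibroblast 5hmC alone and 808 bp with neither. Median day-3 5mC score was 83.1, 82.7, 71.6 and 76.6 in the same order. The median iPS 5hmC score over these regions was 140.4, 124.1, 98.96 and 102.1. Scores were compared here within a list only.

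Among members, the share on day-3 5hmC climbed with the 5mC score, and the share on fibroblast 5hmC was higher in the top score group alone. From the lowest to the highest of the 5 score groups, the share of members on day-3 5hmC was 30.8%, 33.5%, 36.0%, 43.2% and 64.7%, against 14.7%, 17.1%, 21.3%, 34.2% and 62.2% of the other day-3-only peaks. In the highest group, with 490 members, the intervals overlapped (60.4 to 68.8 and 57.7 to 66.6), so that no difference was detectable there. For fibroblast 5hmC the shares were 15.9%, 15.3%, 14.6%, 15.0% and 20.4% of members, against 3.53%, 3.97%, 4.67%, 5.85% and 11.3% of the other day-3-only peaks, with separate intervals in each group. By width, 47.1% of members and 38.9% of the others lay on day-3 5hmC in the widest of 5 equal groups, and 30.0% and 12.7% in the narrowest. Fibroblast 5hmC differed from this: from the narrowest to the widest group it was at 18.5%, 14.5%, 14.1%, 13.3% and 15.1% of members.

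The surroundings also differed. Members lay where peaks of all 6 lists were denser than around the other day-3-only peaks. Within 50 kb of a member the median number of peaks was 9 for fibroblast 5mC, 14 for day-3 5mC and 5 for iPS 5mC, against 6, 10 and 3 around the others. The medians for fibroblast, day-3 and iPS 5hmC were 3, 10 and 18 around members, against 2, 7 and 11. These 5hmC counts include peaks on the region itself. The rule gives every member an iPS 5hmC peak and the others none, so the iPS 5hmC difference is partly set by it. Around all day-3 5mC peaks the medians were 10, 14 and 5 for 5mC and 3, 9 and 16 for 5hmC, in the same stage order. Members thus lay near the usual density of the list, and the other day-3-only peaks lay in sparser surroundings. Carried fibroblast 5mC peaks had medians of 3, 9 and 18 for 5hmC, close to those of members. Peaks gained by day 3 and kept in iPS cells had the same median of 14 day-3 5mC peaks nearby as members, with 21.3% of them on day-3 5hmC. Their medians for day-3 and iPS 5hmC nearby were lower than those of members, at 8 and 16. Only 53.9% of them had iPS 5hmC, so they are not matched to members.

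Divided by the number of day-3 5mC peaks within 50 kb, members kept the higher share in each group, and the 2 earlier 5hmC lists ran in opposite directions. Where 0 to 4 other 5mC peaks lay nearby, 28.6% of 2313 members were on day-3 5hmC and 27.4% on fibroblast 5hmC, against 10.6% and 4.29% of the other day-3-only peaks. Where 20 to 45 lay nearby, 40.2% of 6788 members were on day-3 5hmC and 11.9% on fibroblast 5hmC, against 27.7% and 4.43%. Fibroblast 5hmC was thus more frequent at members in peak-poor surroundings, while at the other day-3-only peaks it stayed between 3.84% and 4.43% in all 5 groups. The share of day-3-only peaks that were members also changed, from 19.9% in the sparsest to 50.3% in the densest group. The fall at members is therefore not independent of the rule, is given as a description and cannot be read as a trait of members.

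**Figure D2:**
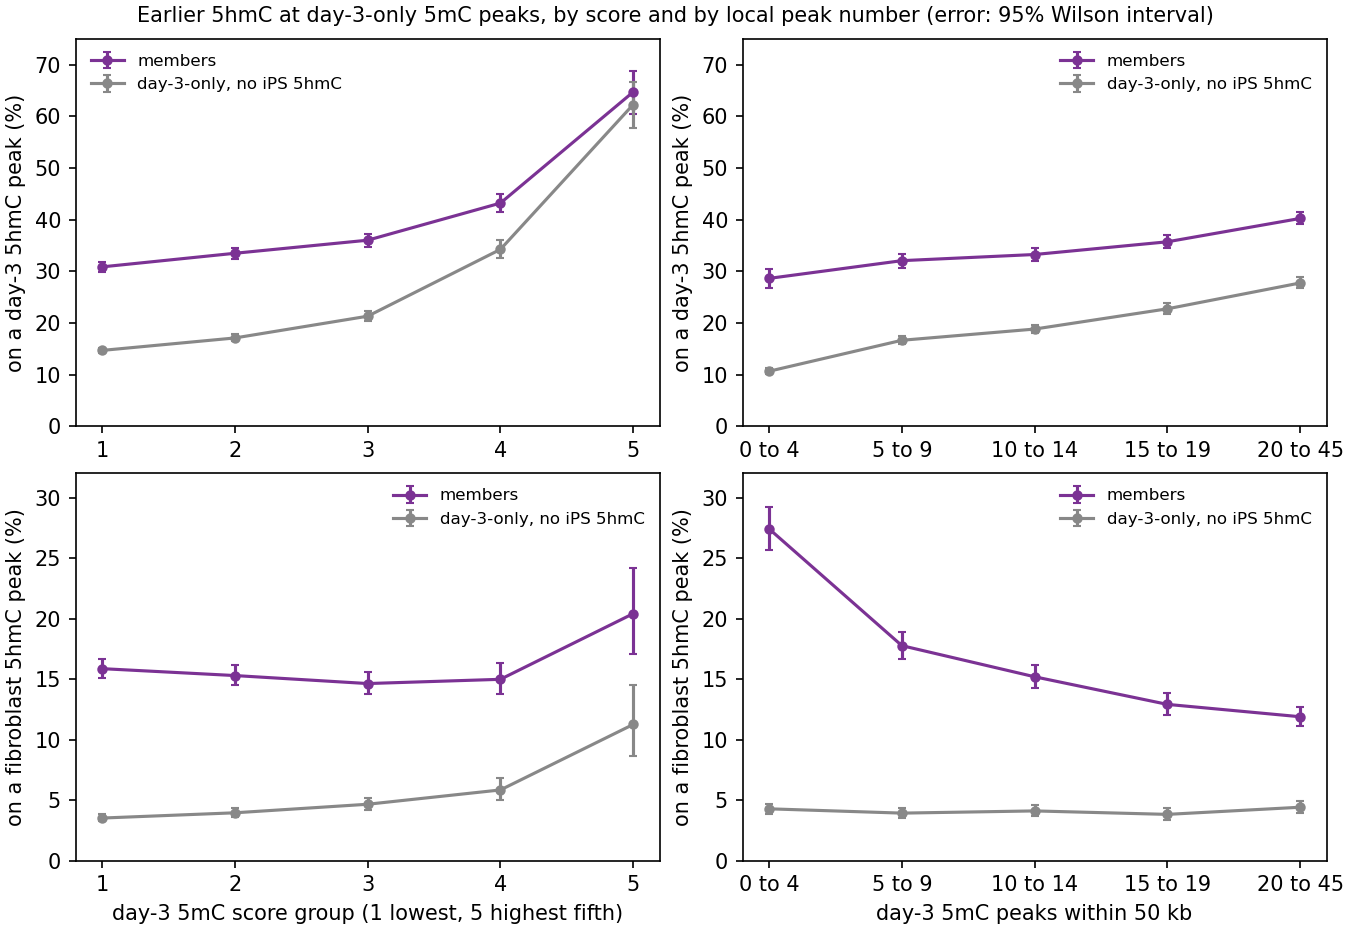
Share of members and of the other day-3-only 5mC peaks (vertical axes, %) on day-3 5hmC (top) and on fibroblast 5hmC (bottom), by day-3 5mC score group (left) and by the number of day-3 5mC peaks within 50 kb (right); points are shares and error bars 95% Wilson intervals. On the right, fibroblast 5hmC at members goes from 27.4% in the sparsest to 11.9% in the densest surroundings, while the share of day-3-only peaks that are members rises.

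The 5hmC was centred on the 5mC peak rather than beside it. At the centre of members, 13.5% of positions were covered by fibroblast 5hmC, 30.0% by day-3 5hmC and 92.2% by iPS 5hmC. At 1000 bp to the left these values were 2.70%, 14.0% and 23.05%, and at 5000 bp they were 2.88%, 13.3% and 20.8%. At the other day-3-only peaks fibroblast 5hmC covered 3.45% of centres and 1.799% of positions 1000 bp away, and day-3 5hmC 15.7% and 9.09%. The iPS values at the centre follow from the rule. The 2 earlier lists were not used by it, although they went together with iPS 5hmC.

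**Figure D3:**
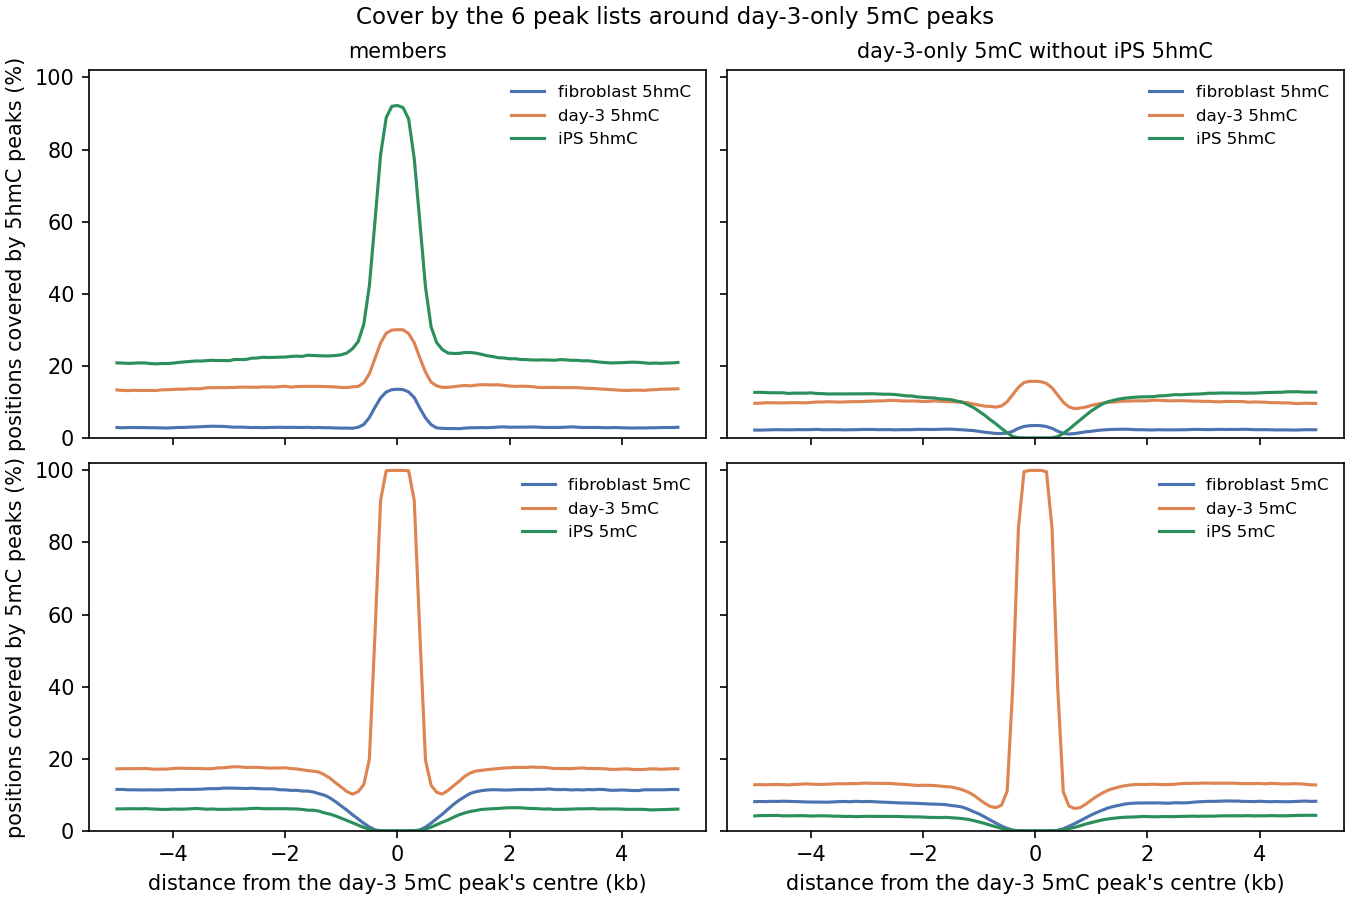
Share of positions covered by the 5hmC lists (top) and the 5mC lists (bottom) of the 3 stages (vertical axes, %) against the distance from the centre of the day-3 5mC peak (horizontal axis, kb), for members (left) and the other day-3-only peaks (right). Fibroblast 5hmC and day-3 5hmC peak at the centre of members at 13.5% and 30.0%; the empty centre of fibroblast and iPS 5mC is set by the rule.

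Members and iPS 5hmC peaks, which the rule required to share at least 1 bp, mostly overlapped over much of their width. The same values were not computed for other day-3 5mC peaks on iPS 5hmC, so the fit cannot be called particular to members. The median overlap was 704 bp (quartiles 595 and 821), which is 92.0% of a member's width, and 32.02% of members lay wholly inside 5hmC. The centres were a median of 114 bp apart (quartiles 49 and 289), and 66.6% were within 200 bp. Where fibroblast 5hmC was present, the median offset was 112 bp. With day-3 5hmC it was 191 bp. Most members, 24288, lay on 1 iPS 5hmC peak, 561 lay on 2, and 1 lay on more.

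The iPS 5hmC peaks under members numbered 24954, or 14.3% of that list. Their median width was 909 bp and their median score 107.2, near the medians of the whole iPS 5hmC list (906 bp and 105.9). iPS 5hmC peaks on fibroblast 5mC and on no member were wider and higher, at 1061 bp and 155.8, and those on no 5mC peak of any stage narrower and lower, at 805 bp and 81.3. Set against other iPS 5hmC peaks, earlier 5hmC at the peaks under members differed by less than between both kinds of day-3-only peak. Day-3 5hmC overlapped 36.7% of the iPS 5hmC peaks on a member, against 37.4% of those on fibroblast 5mC and no member, 28.0% of those on no 5mC and 32.9% of all. Fibroblast 5hmC overlapped 16.5%, against 14.65%, 14.3% and 15.7% in the same order. The overlapping iPS 5hmC peak also touched a fibroblast 5mC peak at 5.83% of members and an iPS 5mC peak at 3.05%, and neither at 93.2%. The rule itself keeps these shares low, since it bars both 5mC lists from the member, with which the 5hmC peak mostly coincides.

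Among members, the share on day-3 5hmC rose with the score of their iPS 5hmC peak. The same shares were not computed for other iPS 5hmC peaks, so the rise cannot be called particular to members. With iPS 5hmC peaks ranked by score into 10 equal groups, the share of members on day-3 5hmC was 26.2% (24.4 to 28.1) in group 1, the lowest, 32.1% in group 5, 42.2% in group 8 and 48.5% (46.4 to 50.7) in group 10. The share on fibroblast 5hmC was 10.97% in group 1, 18.8% in group 8 and 15.5% (14.0 to 17.2) in group 10. Members were spread over all 10 groups, with 8.29% to 11.05% of them in each.

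Most members lay near 5mC that fibroblasts already had. The gap to the nearest fibroblast 5mC peak was a median of 3367 bp (quartiles 1191 and 8672), against 5692 bp (1985 and 16964) for the other day-3-only peaks. It was at most 1000 bp for 21.9% of members (21.4 to 22.4) and 14.0% of the others, and over 50 kb for 3.37% and 11.1%. To the nearest iPS 5mC peak the medians were 6605 bp and 11092 bp. Gaps of peaks gained by day 3 and kept in iPS cells were like those of members, at 3167 bp to fibroblast 5mC. Of members, 857 (3.45%) fell in windows of 100 kb with no fibroblast 5mC at all, against 4304 (11.1%) of the other day-3-only peaks.

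**Figure D4:**
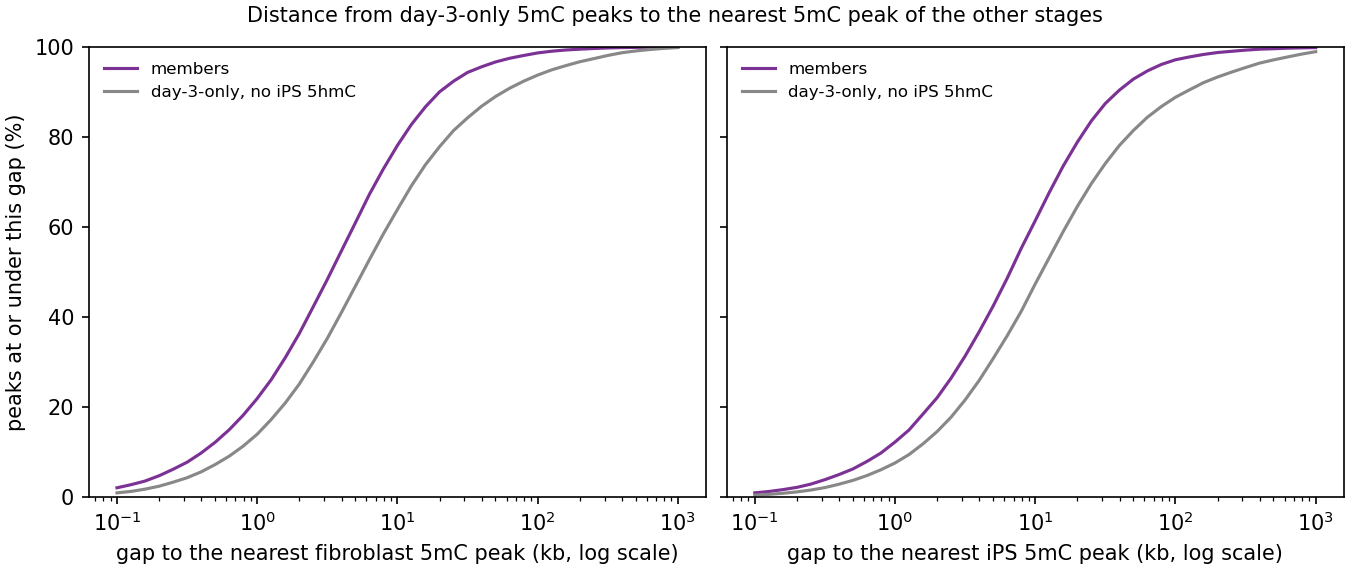
Cumulative share of members and of the other day-3-only 5mC peaks (vertical axis, %) against the gap to the nearest fibroblast 5mC peak (left) and iPS 5mC peak (right), in kb on a log scale. The curve of members lies to the left in both panels, with medians of 3367 bp and 6605 bp.

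The regions were found on all autosomes in similar weight. Their share of the day-3 5mC peaks ranged from 14.0% on chromosome 5 to 16.1% on chromosome 11, with a median of 15.0%. The share of day-3-only peaks with iPS 5hmC ranged from 35.4% on chromosome 14 to 43.3% on chromosome 11. Members on day-3 5hmC ranged from 32.8% on chromosome 1 to 38.6% on chromosome 10, and on fibroblast 5hmC from 12.6% on chromosome 19 to 18.5% on chromosome 7. Chromosome X held 69 members of 605 day-3 5mC peaks, or 11.4% (9.11 to 14.2), and only 17.1% (13.72 to 21.05) of its 404 day-3-only peaks had iPS 5hmC. Chromosome Y held 1 member and the mitochondrial genome 0.

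Members occurred both alone and in groups. The nearest other member was a median of 13371 bp away, and 14358 members (57.8%) had none within 10 kb. Windows of 100 kb with at least 1 member numbered 10502, or 54.6% of those with any day-3 5mC peak, and 4191 of them held a single one. Windows with 5 or more numbered 1149 and held 27.0% of all members.

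The most members in a window was 12, reached on chromosome 15 from 102800001 to 102900000 and on chromosome 11 from 116900001 to 117000000. The window on chromosome 15 held 18 day-3 5mC peaks, and all 18 were day-3-only, since fibroblast 5mC and iPS 5mC covered 0 kb of it. Day-3 5mC covered 16.1 kb. Fibroblast 5hmC covered 0.91 kb, day-3 5hmC 33.7 kb and iPS 5hmC 20.75 kb, and 10 of the 12 members were on day-3 5hmC. Among the 1149 windows with 5 or more members it was the only 1 without a fibroblast or iPS 5mC peak, a count chosen after its values were seen.

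The run with the most members, joined over gaps of at most 10 kb, lay in the same window, from 102802523 to 102857415. It held 11 members over 54.9 kb, with day-3 5mC scores from 52.4 to 147.7 and a median of 89.7. No fibroblast 5hmC, fibroblast 5mC or iPS 5mC peak was listed across it, whereas day 3 had 14 5mC and 18 5hmC peaks and iPS cells 15 5hmC peaks. The strongest member, at 102814208 to 102815245, had a 5mC score of 147.7 and a 5hmC score of 348.4 at day 3, and a 5hmC score of 234.8 in iPS cells. The members at 102848889 to 102849722 and at 102856688 to 102857415 had no day-3 5hmC and iPS 5hmC scores of 168.2 and 222.2. The other 3 day-3 5mC peaks of the run, with scores of 81.6, 153.4 and 189.4, lay on day-3 5hmC and not on iPS 5hmC. The run was thus a stretch where both marks were listed at day 3, neither in fibroblasts, and only 5hmC in iPS cells. It was chosen for its number of members. For each member the rule itself sets day-3 5mC, iPS 5hmC and the absence of fibroblast and iPS 5mC.

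**Figure D5:**
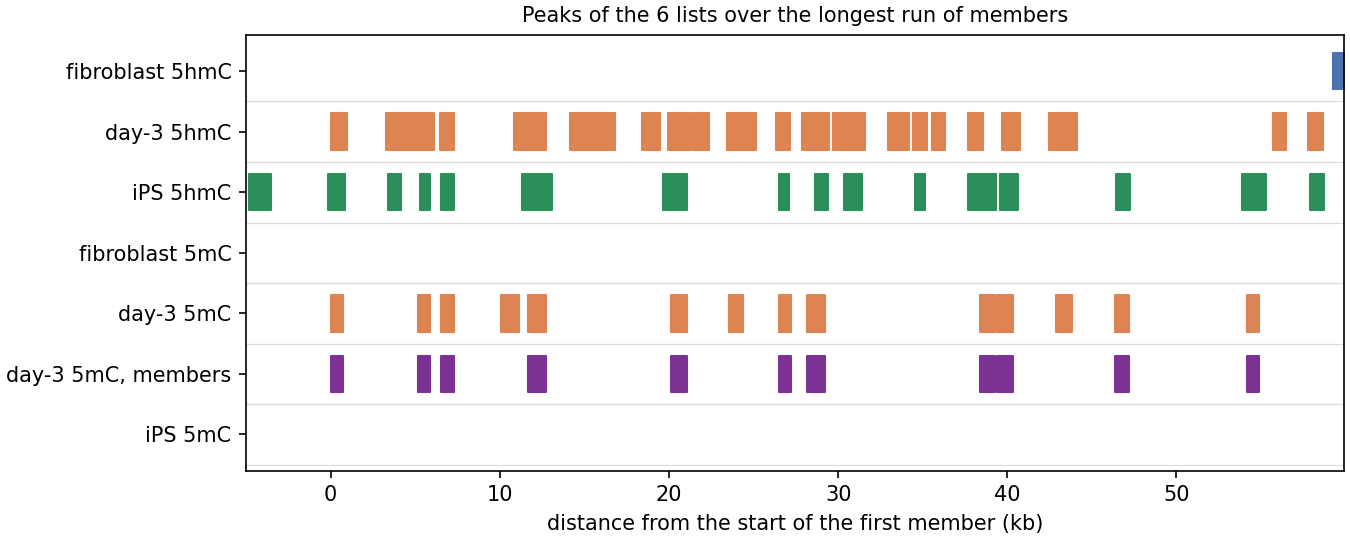
Map of the run with the most members, on chromosome 15, with the peaks of each list as boxes against the distance from the start of the first member (kb). The fibroblast 5mC and iPS 5mC rows are empty, day 3 has 14 5mC peaks of which 11 are members, and the only fibroblast 5hmC peak in view lies past the end of the run.

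The window on chromosome 11 with 12 members, and the one next in number, looked different, as members there lay among fibroblast 5mC peaks. From 116900001 to 117000000, 12 of 26 day-3 5mC peaks were members, and the fibroblast, day-3 and iPS 5mC lists covered 13.3 kb, 28.1 kb and 3.88 kb. The 5hmC lists covered 3.01 kb, 45.4 kb and 42.9 kb in the same order. On chromosome 11 from 86700001 to 86800000, 11 of 18 were members, with 5mC over 7.52 kb, 15.2 kb and 1.835 kb and 5hmC over 2.66 kb, 14.6 kb and 31.98 kb. Both windows had 5mC cover that was widest at day 3, which choosing windows by their members favours. The whole day-3 5mC list was also the widest, at 170.1 Mb against 110.8 Mb in fibroblasts and 59.7 Mb in iPS cells.

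The 2 runs next in number of members shared this mixed setting. On chromosome 19 from 47479713 to 47537353, 10 members stood among 23 day-3, 10 fibroblast and 4 iPS 5mC peaks. Of these members 4 were on fibroblast 5hmC and 6 on day-3 5hmC. On chromosome 11 from 116890389 to 116932666, 9 members stood among 11 day-3, 2 fibroblast and 1 iPS 5mC peaks, with 1 on fibroblast 5hmC and 3 on day-3 5hmC.

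The 5 members with the highest day-3 5mC scores all carried day-3 5hmC. The highest was on chromosome X from 93160344 to 93164530, with a score of 1088. It was also the widest, at 4187 bp, lay 965806 bp from any fibroblast 5mC peak, had no fibroblast 5hmC, and had 5hmC scores of 1284 at day 3 and 244.9 in iPS cells. Chromosome X held only 605 of the 165869 day-3 5mC peaks, so the long gap need not be particular to this member. On chromosome 7 the peak from 6314590 to 6316173 scored 983.7, with fibroblast, day-3 and iPS 5hmC scores of 134.3, 590.4 and 89.1. On chromosome 14 the peak from 22318883 to 22322493 scored 936.7, with 5hmC scores of 160.8, 638.4 and 80.85 at the same stages. The other two were on chromosome 10 from 80119173 to 80121800, with 936.6, and on chromosome 7 from 51559988 to 51562557, with 901.2, and both had 5hmC at all 3 stages. So 4 of the 5 had 5hmC at all 3 stages, against 8.67% of all members, while 5mC at day 3 alone is the rule itself. These 5 were picked for their score and were 1584 to 4187 bp wide, so all members are an unlike baseline. In the highest score group, day-3 5hmC was at 64.7% of members and 62.2% of the other day-3-only peaks.

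After the peak on chromosome X, the widest members were on chromosome 12 from 93008840 to 93012506 and on chromosome 19 from 57430077 to 57433743, each 3667 bp. They scored 711.4 and 624.8 for 5mC and had no fibroblast 5hmC. Their 5hmC scores were 160.5 and 364.9 at day 3 and 83.8 and 52.6 in iPS cells. In both, iPS 5hmC covered less than the 5mC peak did, at 999 bp and 772 bp. Members of 3 kb or more numbered 9, or 0.0362%, against 0.00777% of the other day-3-only peaks, 1.70% of carried fibroblast 5mC peaks and 0.962% of all day-3 5mC peaks.

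Of the 5 members under the strongest iPS 5hmC peaks, 3 had 5mC scores near the floor of the list. The lowest of the 5 score groups, from 50.01 to 65.27, held 32.1% of all members. On chromosome 4 the member from 125313408 to 125314209 had a 5mC score of 54.8 and lay inside an iPS 5hmC peak of 9049 bp with a score of 2802, with no 5hmC peak at either earlier stage. The same history held on chromosome 8 from 123074206 to 123074966, with a 5mC score of 59.3 and an iPS 5hmC score of 2241. On chromosome 11 from 98829214 to 98830703 the 5mC score was 152.4, and 5hmC was listed at all stages, with scores of 73.7, 3100 and 2297 in stage order; 258 day-3 5hmC peaks share the score of 3100. On chromosome 9 from 63591075 to 63591905 the 5mC score was 60.3 and the 5hmC scores were 199.6, 1586 and 2291. On chromosome 19 from 5955035 to 5956381 a 5mC score of 426.8 went with 5hmC scores of 752.6 at day 3 and 2456 in iPS cells, and none in fibroblasts. All 5 had a fibroblast 5mC peak within 1000 bp, the nearest 40 bp away on chromosome 4, against 21.9% of all members. These 5 were picked for their iPS 5hmC peaks, which were 4133 to 9049 bp wide, so all members are an unlike baseline.

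Membership depended on the score floor. With peaks of a score of at least 100 in all 6 lists, 16577 day-3 5mC peaks met the rule, of which 4456 were among the 24850, because dropping weak fibroblast and iPS 5mC peaks let other peaks in. The shares on day-3 and fibroblast 5hmC were then 29.0% and 9.40% for regions meeting the rule, against 17.1% and 2.50% for day-3-only peaks without iPS 5hmC, in the same order as before.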

How the data were processed

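The 6 peak lists, 1 per library, were used, with each library grouped by its title in the labels. Per the submitters' processing notes, CASAVA 1.8, Bowtie 0.12.7, MACS 1.4.1 and build mm9 were used. Per the labels, each reaction took 500 ng of DNA with adapters, 14 to 16 amplification cycles followed, and fragments of 300 to 500 bp were kept. Each deposited file gives chromosome, start, end, name and a score per peak. That the score is 10 times the negative log10 of p is not stated in the sources used here, nor are an input control, duplicate handling, settings or depth. Scores were used within a list only.

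Overlap meant 1 bp or more, and peaks of the same list never overlapped. Overlaps, covered lengths and gaps were computed with Python 3.11.15 and numpy 2.4.6, tested on 4500 simulated peaks with 0 errors, and compared with bedtools 2.31.1 for 5 lists, of which 0 differed. Wilson intervals came from scipy 1.17.1, with differences of shares by Newcombe's method, and figures from matplotlib 3.10.9. For offsets, the 10 groups by iPS 5hmC score and contact with 5mC peaks, a member's 5hmC partner was the peak sharing most bases with it. The iPS 5hmC scores by earlier 5hmC history, and the 5hmC scores given within the run, were the highest among overlapping peaks. Named regions are the 5 members with the highest score, the 3 widest, the 5 under the highest-scoring iPS 5hmC, the 3 windows of 100 kb with the most members, the 3 runs with the most members and gaps of at most 10 kb, and the pairs at the edge of the rule. Members, lists and comparisons were chosen with earlier results of these data known, and the grouping by peaks within 50 kb after seeing them. Genes and sequences are not given, since the reference tables used here are on build GRCm38.p6 and the peaks on mm9; the annotation steps planned for mm9 were not used.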

Additional observations from a re-analysis of the deposited data

How the results depend on the processing

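The 6 alternatives gave 54 values, of which 38 moved outside the interval of the value reported (or by over 1.5 times, for the count) and 0 changed direction; members exceeded the other day-3-only peaks in both earlier 5hmC lists under all 6. Keeping peaks that scored 100 or more, 37.8% of day-3-only peaks had iPS 5hmC, 29.0% of members had day-3 5hmC and 9.40% fibroblast 5hmC, and the differences from the other day-3-only peaks were 11.97 and 6.89 percentage points. When all lists were cut to their 42301 highest scores, 2040 members were left, of which 314 were among the 24850, and these values were 25.04%, 32.45%, 16.5%, 9.02 and 6.04. The score floor and list lengths thus decide which regions are members. With an overlap of at least 50% of the day-3 peak they were 36.8%, 30.6%, 13.7%, 14.3 and 10.3, with the centre inside the other peak 36.8%, 30.6%, 14.0%, 14.5 and 10.5, and 22833 and 22918 members were shared. With no fibroblast or iPS 5mC within 1000 bp, 36.4% of day-3-only peaks had iPS 5hmC, 16.5% of members had fibroblast 5hmC and the difference was 12.3. On autosomes alone no value moved. No paired analysis was possible because each stage and mark has 1 library.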
